A study of Mus musculus with 18 samples.

Results

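The genes described here are the 36 glycolysis and hypoxia response genes of tumor-infiltrating T cells, chosen by symbol from the 37236 genes of the deposited table. They comprise 2 glucose transporters, 11 genes of the upper and 6 of the lower part of glycolysis, 5 genes that handle pyruvate and lactate, 5 of the oxygen-sensing pathway and 7 targets of that pathway. All 36 had a mean of at least 10 normalized counts and entered the tests. RNA was sequenced from CD3+ tumor-infiltrating lymphocytes (TILs) of B16-OVA tumors, a mouse melanoma line carrying ovalbumin as model antigen, in C57BL/6 mice with (Nr2f6+/+) or without (Nr2f6-/-) the nuclear receptor NR2F6. All mice carried 500000 injected tumor cells, received 0.5 mg of an antibody per injection from day 3 on, either anti-PD-L1 (αPD-L1) or the control IgG2b, and were analyzed at day 14. Each genotype is represented by 3 samples with IgG2b and 6 with αPD-L1. The study's legend for its principal component analysis gives 5 for each αPD-L1 group and does not say which were used. The methods of the study give mice of 8 to 12 weeks for tumor implantation and a deficient line crossed back 8 times, and the deletion is not limited to T cells. Bead-sorted CD4+ and CD8+ cells were pooled and then sorted for CD3, and the values do not separate them. Nothing in the labels says whether a sample is 1 animal or a pool, so p-values measure the spread between these samples.

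Glycolysis splits glucose into pyruvate in the cytosol, and activated effector T cells are known for turning most of that pyruvate into lactate even when oxygen is present. In low oxygen the prolyl hydroxylases of the Egln family no longer mark the hypoxia-inducible factors (HIF-1α from Hif1a, HIF-2α from Epas1) for destruction through the von Hippel-Lindau protein. The stabilized factors then bind short response elements near glycolytic genes and near genes of vessel growth, mitophagy and growth control. Growing melanoma is poorly perfused tissue, and tumor cells use the same enzymes and the same factors. HIF-α is controlled mainly through protein stability, which transcript counts do not measure.

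Between 12473391 and 18609482 reads were counted on genes per sample (median 16554699). A normalized count is a read count divided by the size factor of its sample, and 3 reads, between 2.46 and 3.64 normalized counts, are taken as the smallest level the depth can show, for counting error only. Nr2f6 was at 0 in all 9 Nr2f6-/- samples and between 20.2 and 201 in the 9 Nr2f6+/+ samples. The library numbers fall into 2 sets. The first 12 libraries hold replicates 1 to 3 of all groups and the other 6 hold replicates 4 to 6 of the αPD-L1 groups, so the second set holds no IgG2b sample. The 12 T cell markers were the sorted cells' own, with summed levels between 70198 and 113892 per sample. Transcripts of macrophages, platelets and melanocytes were also found, and they differed between groups as given beside the results. Sums per sample were 1661 to 6952 for B cell, 1008 to 3715 for NK cell, 174 to 1388 for dendritic and 115 to 719 for endothelial and fibroblast markers. Most of the B cell sum was Ighm (mean 2309), and Eomes (1173) and Klre1 (975) made up most of the NK cell sum. The 6 erythroid markers summed to 10834 in replicate 5 of Nr2f6+/+ αPD-L1 and to 2221 in replicate 3 of Nr2f6-/- αPD-L1. In all other samples this sum was between 0 and 1049.

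Levels were not compared between genes, because the libraries read only the 3′ ends of transcripts. In every sample Ldha, which makes lactate from pyruvate, lay between 16512 and 33643 normalized counts, Pkm, the last enzyme of glycolysis, between 10943 and 25247, Aldoa between 9537 and 23237 and Tpi1 between 6935 and 23442. Hif1a lay between 2181 and 6685 and the oxygen sensor Egln1 between 2142 and 4035. At the low end, Vegfa, the vessel growth factor, was at 0 in 4 samples, and Pfkfb4, which sets the level of an activator of phosphofructokinase, was at 0 in 1. The 17 genes of the enzymes from hexokinase to lactate dehydrogenase together took between 0.433% and 0.760% of a sample's normalized counts.

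**Figure D1:**
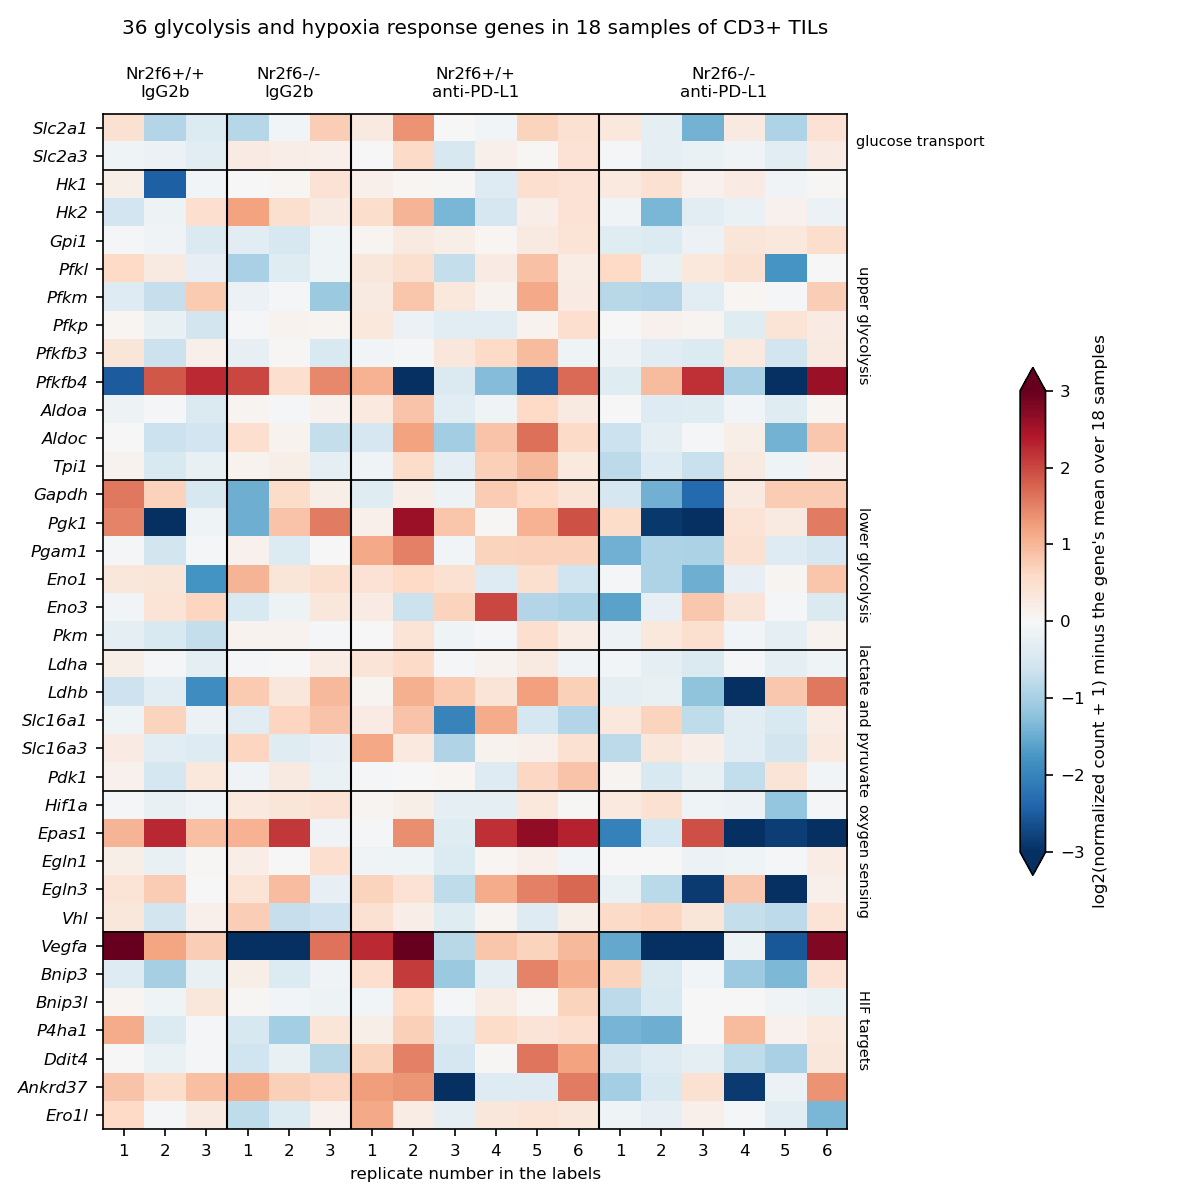
Rows are the 36 genes in 6 functional groups and columns the 18 samples by group and replicate number; color is log2(normalized count + 1) minus the gene's mean over all samples, with values beyond 3 drawn at the end of the scale. Replicates 2, 5 and 6 of Nr2f6+/+ αPD-L1 lie above the gene's mean in 31, 31 and 30 of the 36 genes and replicate 3 in 9.

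The first comparison asks what the absence of NR2F6 did to these genes under PD-L1 blockade. No member passed the threshold of an adjusted p of 0.05 with limma, against 0.175% of all 11992 genes tested. At an unadjusted p under 0.05, 11 of the 36 were lower in Nr2f6-/- TILs and 0 were higher, beside 5.07% of all genes lower and 4.66% higher. In direction, 30 of the 36 had a lower mean log2 level in Nr2f6-/- TILs, where 50.4% of all genes did. The median log2 fold change over the 36 was −0.43, and over all genes −0.005. The groups overlapped for all 36 genes, while 0.592% of all genes did not overlap. These are transcript levels, and glycolytic flux of the TILs was not measured. For CD3+ T cells stimulated in vitro, the study reports significantly more acidification of the medium without NR2F6, which is another measure in other cells.

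The largest difference in terms of p was in Ddit4, which encodes REDD1, an inhibitor of the growth kinase complex mTORC1 induced in hypoxia and under other stress (GRCm38 chromosome 10, 59949669 to 59951834, minus strand). Its normalized counts in Nr2f6+/+ αPD-L1 were 5696, 10139, 2499, 3653, 10822 and 8252 in replicates 1 to 6. In Nr2f6-/- αPD-L1 they were 2434, 2715, 2887, 2103, 1829 and 4521. In the first group, 4 values exceed all of the second, while replicates 3 and 4 of the first group lie below the highest of the second. The log2 fold change was −1.19 (standard error 0.27), a ratio of 0.438, and limma's adjusted p was 0.0618. With edgeR on the recovered reads Ddit4 passed at an adjusted p of 0.0395 and with DESeq2 at 0.00041. Without replicate 3 of Nr2f6+/+ αPD-L1 limma gave 0.0032, and over all alternatives the adjusted p was between 0.00041 and 0.750. With replicates 2 and 5 of Nr2f6+/+ αPD-L1, the highest of that group, both left out, the log2 fold change was −0.79.

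Epas1, which encodes HIF-2α, had normalized counts of 107, 285, 84.7, 504, 696 and 545 in Nr2f6+/+ αPD-L1. In Nr2f6-/- αPD-L1 they were 26.0, 75.5, 415, 2.0, 14.4 and 0. Replicate 3 of the second group stands above its 5 fellows and inside the range of the first. It differed by −3.93 on the log2 scale (standard error 1.02, adjusted p = 0.111), and without that replicate it was −4.83 with an adjusted p of 0.0228. The size of the estimate depends on low counts, with −2.90 at a pseudocount of 10. With edgeR and with DESeq2 it was −2.06 (adjusted p = 0.446 and 0.299). It also depends on the library set, with −0.54 in the first and −7.33 in the second. Egln3, the hydroxylase PHD3 that is itself induced by HIF, was between 113 and 643 with a median of 362 in Nr2f6+/+ mice. In Nr2f6-/- mice the range was 10.8 to 339 and the median 139, which gave −1.94 on the log2 scale (standard error 0.67, adjusted p = 0.315). The other sensors differed less, with Hif1a at 4972 ± 821 against 4736 ± 1563, Egln1 at 2700 ± 351 against 2815 ± 279 and Vhl at 769 ± 176 against 844 ± 324 normalized counts (SD, n = 6 each, Nr2f6+/+ first).

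Among the enzymes, Tpi1, triosephosphate isomerase, had 11136, 17590, 9829, 19726, 23442 and 14728 normalized counts in Nr2f6+/+ αPD-L1. In Nr2f6-/- αPD-L1 it had 6935, 9111, 7519, 14531, 10987 and 13043. Within each library set the Nr2f6-/- samples were lower on average, and over both sets the difference was −0.62 on the log2 scale (standard error 0.20, adjusted p = 0.258). Ldha, lactate dehydrogenase A, had 29118, 33643, 22040, 24031, 27103 and 20988 normalized counts in Nr2f6+/+ and 21054, 18275, 16512, 21780, 18572 and 20534 in Nr2f6-/- mice. Only 1 Nr2f6+/+ sample, replicate 6, lay below the highest of the other genotype. The difference was −0.41 on the log2 scale (standard error 0.14, adjusted p = 0.289), and DESeq2 gave an adjusted p of 0.0496. 

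A further 6 members had an unadjusted p under 0.05. Pgam1, phosphoglycerate mutase, was at 319 ± 115 against 125 ± 63.0 normalized counts and Aldoa, aldolase A, at 16127 ± 4752 against 11450 ± 1631. Slc2a1, the glucose transporter GLUT1, was at 2149 ± 871 against 1374 ± 605. The mitophagy genes Bnip3 and Bnip3l were at 1443 ± 1034 against 667 ± 352 and at 1034 ± 240 against 735 ± 148, and Ero1l, an oxidoreductase of the endoplasmic reticulum, at 968 ± 332 against 600 ± 176 (SD, n = 6 each, Nr2f6+/+ first). Their log2 fold changes ran from −1.40 for Pgam1 to −0.45 for Aldoa, with adjusted p-values of limma between 0.347 and 0.504. By group, 4 of 7 HIF targets, 2 of 5 sensors, 2 of 11 upper and 1 of 6 lower glycolysis genes, 1 of 5 pyruvate and lactate genes and 1 of 2 transporters were among the 11. All 7 HIF targets and all 6 lower glycolysis genes had a log2 fold change below 0, and the 6 members above 0 were in the upper, pyruvate and lactate, and sensor groups.

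**Figure D2:**
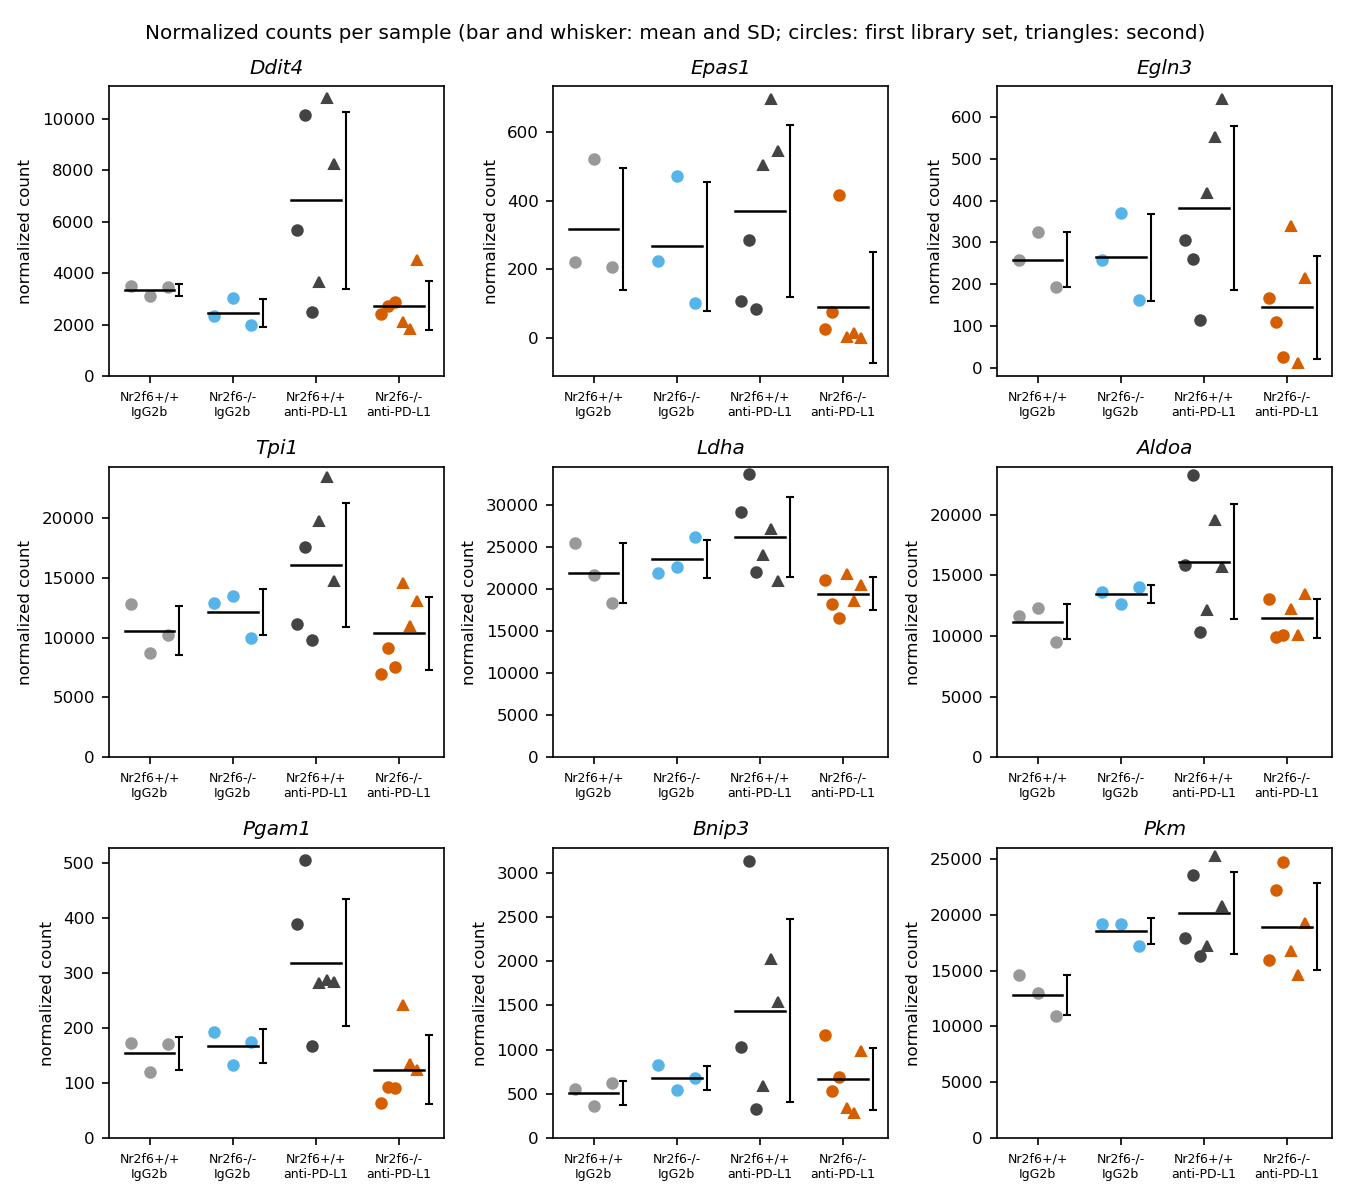
Each panel plots the normalized count of 1 gene (vertical axis) in each sample of the 4 groups; bar and whisker are mean and SD, circles the first and triangles the second library set. Ddit4 lies between 1829 and 4521 in Nr2f6-/- αPD-L1 and between 2499 and 10822 in Nr2f6+/+ αPD-L1, and Pkm is lowest in Nr2f6+/+ IgG2b, between 10943 and 14561.

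Because only the αPD-L1 groups are in both library sets, this comparison could be made in each set. In the first set 26 of the 36 members had a lower mean log2 level in Nr2f6-/- TILs and in the second set 32, with 23 lower in both and 1 higher in both. All 11 members named above were lower in both sets. They were picked for a small p over both sets together, so their direction within each set is no independent evidence. The medians over the 36 were −0.47 and −0.40. Between the sets, within genotype, no member passed (0% of all genes with limma), 24 members were higher in the second (49% of all genes), 4 members had an unadjusted p under 0.05 and all were higher in the second (4.71% of all genes were higher and 4.59% lower). Gapdh had a log2 difference of 1.36 (standard error 0.31, adjusted p = 0.160), Tpi1 of 0.66 (0.16, 0.195), Gpi1 of 0.39 (0.14, 0.380), P4ha1, a collagen prolyl hydroxylase subunit, of 0.86 (0.35, 0.464) and Vhl of −0.52 (0.28, 0.612), where brackets give standard error and adjusted p of limma. With DESeq2 the set difference of Gapdh and Tpi1 passed. Without replicates 2 and 5 of Nr2f6+/+ αPD-L1, 6 instead of 11 members had an unadjusted p under 0.05 for genotype and the median was −0.31.

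Markers of other cells differed between the same groups. Of the 7 melanocyte markers tested, all 7 had a log2 fold change below 0, with a median of −1.44, and 3 of them had an unadjusted p under 0.05. The 8 markers on the list summed to a median of 3564 normalized counts (2077 to 7835) in Nr2f6+/+ mice given αPD-L1. In Nr2f6-/- mice the median of that sum was 1284 (799 to 4489). The defining genes Tyrp1, Dct, Pmel and Mlana were above 0 in all 18 samples. The 2 samples with the most melanocyte transcripts in Nr2f6+/+ αPD-L1, replicates 5 (7835) and 2 (4769), were also the 2 with the highest enzyme sums, 116152 and 117645 normalized counts. Replicate 3 of Nr2f6+/+ αPD-L1 had the lowest melanocyte sum (2077) and the lowest enzyme sum (74244) of its group. In Nr2f6-/- αPD-L1, replicate 1 had the highest melanocyte sum (4489) with the lowest enzyme sum (71105). Replicate 6 of that group had a melanocyte sum of 4053 with the highest enzyme sum (87330). As a share of all normalized counts of a sample, the order in this group changed. Replicate 5 was then lowest (0.441%) and replicate 4 highest (0.522%), with replicate 1 at 0.481% and replicate 6 at 0.521%. In Nr2f6+/+ αPD-L1, replicates 5 (0.760%) and 2 (0.650%) stayed highest and replicate 3 (0.457%) lowest. T cell markers were higher in 10 of 12 genes in Nr2f6-/- αPD-L1, with sums between 102932 and 113892 against 81653 to 105358. Those higher at an unadjusted p under 0.05 were Cd2, Cd8a and Cd8b1. Mean Cd8b1 was 20526 against 13419 and mean Cd8a 13161 against 9337 normalized counts, while mean Cd4 was 3905 against 4496. For macrophages 5 of 14 markers were higher, 2 of them at an unadjusted p under 0.05 (Ctsb and Spp1). The other 9 were lower, 4 of them at that threshold (Adgre1, C1qb, Fcgr1 and Lyz2). Macrophage sums were between 10889 and 13380 against 7405 to 14859, and most of them was Ctsb, with means of 9877 against 7279. The 6 platelet markers, of which 3 were tested, summed to between 16.7 and 482 in Nr2f6-/- αPD-L1 and between 198 and 1520 in Nr2f6+/+ αPD-L1, with 2 lower at an unadjusted p under 0.05. Tested B cell (3), NK cell (4), dendritic (7) and endothelial and fibroblast (7) markers had 1 gene each at that threshold. On the log2 scale, Cd79b (3.38) and Klre1 (1.17) were higher and Xcr1 (−2.96) and Cdh5 (−3.02) lower. Of all genes, 4.66% were higher and 5.07% lower at it. The part of these differences in the result was not tested. In a bulk sample, fewer cells of a type and less RNA per cell cannot be told apart.

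**Figure D3:**
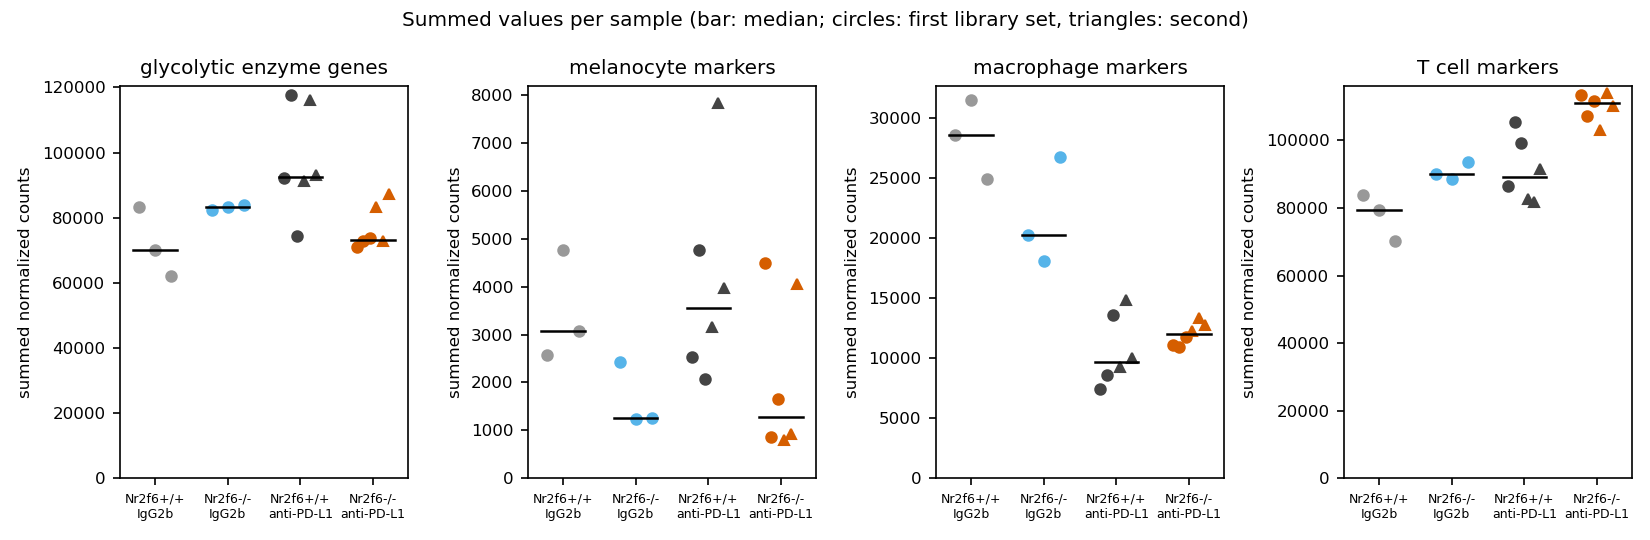
Vertical axes give, per sample, the summed normalized counts of the 17 glycolytic enzyme genes and of the melanocyte, macrophage and T cell marker lists; bars are medians, circles the first and triangles the second library set. Enzyme sums are highest in replicates 2 and 5 of Nr2f6+/+ αPD-L1, macrophage sums are at least 18106 in every IgG2b sample and at most 14859 in every αPD-L1 sample.

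The windows before the gene starts were read for the letters that HIF binds. RefSeq promoter windows (GRCm38.p6) were found for 33 of the 36 members, with Ero1l under its newer symbol Ero1a, and not for Slc2a3, Epas1 and Bnip3l. In the 250 bases before the start, on either strand, the letters ACGTG or the variant GCGTG, which are the cores of the hypoxia response element, stood in 30 of 33 members (90.9%), in 41.5% of the 27025 genes of the table and in 62.2% of its 8826 genes that were tested here. ACGTG alone stood in 20 members (60.6%, 18.5% of all and 25.5% of tested genes) and GCGTG in 23 (69.7%, 30.9% and 50.8%). The E-box CACGTG, which holds ACGTG on both strands, stood in 6 (18.2%, 6.86% and 10.0%). AGGTCA, the half-site known from many nuclear receptors, stood in 7 members (21.2%, 15.8% and 12.8%), and Ddit4, Egln3 and Bnip3 were not among them. Of the 33 members 10 had more than 1 window, and a gene counts where any of its windows holds the letters. The 33 members have 47 windows and the 27025 genes 32851, so the members have more windows per gene. Known response to hypoxia was part of the choice of members, so these shares describe the list and are no result of the samples.

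Windows of 4 members that were lower in Nr2f6-/- αPD-L1 and have 1 window each are shown to let the elements be seen, from a gene with none to a gene with 4. Each reads 5′ to 3′ along its gene and ends at the base before the RefSeq start. Capitals mark the letters ACGTG, the variant GCGTG and their reverse complements. The gene starts of GENCODE M21 differ: those of Ddit4 (59951834), Bnip3 (138909519) and Tpi1 (124814296) lie inside these windows, and that of Egln3 (54203860) outside. They lie at chr10:59951771-59952020 for Ddit4, chr12:54203875-54204124 for Egln3, chr7:138909507-138909756 for Bnip3 and chr6:124814159-124814408 for Tpi1, all on the minus strand.
Ddit4: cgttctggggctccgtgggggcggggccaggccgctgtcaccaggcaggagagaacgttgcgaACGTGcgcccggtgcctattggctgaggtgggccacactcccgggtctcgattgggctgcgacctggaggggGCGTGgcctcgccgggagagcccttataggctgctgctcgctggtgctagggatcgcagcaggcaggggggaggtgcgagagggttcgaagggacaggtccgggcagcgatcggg
Egln3: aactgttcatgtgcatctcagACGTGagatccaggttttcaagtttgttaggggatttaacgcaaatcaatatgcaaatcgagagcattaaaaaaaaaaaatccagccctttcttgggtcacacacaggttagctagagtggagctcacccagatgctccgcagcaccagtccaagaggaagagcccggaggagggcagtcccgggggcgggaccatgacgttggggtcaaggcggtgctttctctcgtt
Bnip3: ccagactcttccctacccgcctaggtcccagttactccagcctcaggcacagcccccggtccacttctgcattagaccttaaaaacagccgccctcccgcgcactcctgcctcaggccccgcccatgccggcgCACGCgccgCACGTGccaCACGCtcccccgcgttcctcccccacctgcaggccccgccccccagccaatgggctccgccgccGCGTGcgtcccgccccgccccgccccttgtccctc
Tpi1: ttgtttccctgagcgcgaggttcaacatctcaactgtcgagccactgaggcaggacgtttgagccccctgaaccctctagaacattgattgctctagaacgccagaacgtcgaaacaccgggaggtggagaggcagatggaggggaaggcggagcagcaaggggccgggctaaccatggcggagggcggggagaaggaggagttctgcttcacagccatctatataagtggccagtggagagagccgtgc

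In Ddit4 the stretches begin 187 and 115 bases before the RefSeq start, and in Egln3 229 bases before it. In Bnip3 they begin 117, 108, 99 and 35 bases before it, the one at 108 being the E-box. Tpi1 has none in this window, although its level differed in the same direction as that of the others. A match of letters is a description and not a binding site, and HIF binding was not measured.

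The same question under the control antibody rests on 3 against 3 samples. No member and no gene passed with limma (0% of 11992), with 243 genes higher and 398 lower at an unadjusted p under 0.05 and 0 past the adjusted threshold with edgeR and 88 past the adjusted threshold with DESeq2. Of the members, Pkm and Hk1 were higher and Vegfa lower at an unadjusted p under 0.05, where 2.03% of all genes were higher and 3.32% lower. Here 22 of the 36 had a higher mean log2 level in Nr2f6-/- TILs (45.6% of all genes), with a median of 0.14 against −0.06 over all genes. Without replicate 2 of Nr2f6+/+ IgG2b the median was 0.06 and without replicate 1 of Nr2f6-/- IgG2b 0.08, each with 19 of 36 higher.

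Pkm, pyruvate kinase M, had 14561, 13000 and 10943 normalized counts in Nr2f6+/+ and 19195, 19189 and 17220 in Nr2f6-/- IgG2b. All 3 of the second group were above all of the first, a difference of 0.54 on the log2 scale (standard error 0.21, adjusted p = 0.861). Hif1a was likewise separated, with 4722, 4192 and 4504 against 5928, 6231 and 6544, or 0.48 on the log2 scale (standard error 0.27, adjusted p = 0.967). Slc2a3, the transporter GLUT3, had 3141, 3037 and 2746 against 4071, 3901 and 3765 (0.40, standard error 0.24, adjusted p = 0.972). Hk1, the hexokinase found in most tissues, had 1649, 266 and 1384 against 1439, 1503 and 1973, so that its difference of 0.94 (standard error 0.41, adjusted p = 0.900) rests on replicate 2 of Nr2f6+/+, without which it was 0.10. Vegfa had 230, 24.0 and 17.4 against 0, 0 and 33.3 (−3.87, standard error 1.88, adjusted p = 0.920), and the estimate was −1.90 at a pseudocount of 10. The groups did not overlap for 5 members higher in Nr2f6-/- TILs (Aldoa, Hif1a, Ldhb, Pkm and Slc2a3) and for 1 lower (Ddit4, 3103 to 3518 against 2002 to 3056), where 6.1% of all genes were separated upward and 8.07% downward. Cell markers separated the same samples. T cell sums were between 70198 and 83890 in Nr2f6+/+ and between 88440 and 93518 in Nr2f6-/- IgG2b, and platelet sums between 2844 and 3464 and between 833 and 1433. Macrophage markers were lower in 12 of 14 and melanocyte markers in 7 of 7 genes, and the platelet gene Ppbp had the smallest adjusted p of limma in this comparison, 0.0836. The part of these markers in the result was not tested.

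Ddit4 was thus lower on average in Nr2f6-/- TILs with either antibody. Averaged over both treatments it differed by −0.83 on the log2 scale (standard error 0.23, adjusted p = 0.222), and DESeq2 gave an adjusted p of 0.0203. Vegfa (−3.24, standard error 1.15, adjusted p = 0.375), Ero1l (−0.66, 0.25, 0.407), Epas1 (−2.16, 0.89, 0.483) and Gapdh (−0.75, 0.38, 0.591) followed. No member passed with limma (0.05% of all genes). At an unadjusted p under 0.05, 4 members were lower and 0 higher, beside 4.79% and 3.69% of all genes, and 25 of 36 were lower in direction (53.7% of all genes). All 7 HIF targets had a log2 fold change below 0 in this average, and so had all 7 melanocyte markers tested, 5 of them at an unadjusted p under 0.05 and with a median of −1.90. The 3 platelet markers tested were all lower at that threshold (median −2.72), macrophage markers were lower in 11 of 14 genes (4 at that threshold, with 1 higher), and T cell markers were higher in 11 of 12 (5 at that threshold). With IgG2b the melanocyte sums were between 2579 and 4757 in Nr2f6+/+ and between 1240 and 2433 in Nr2f6-/- mice. Their part in the result was not tested.

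**Figure D4:**
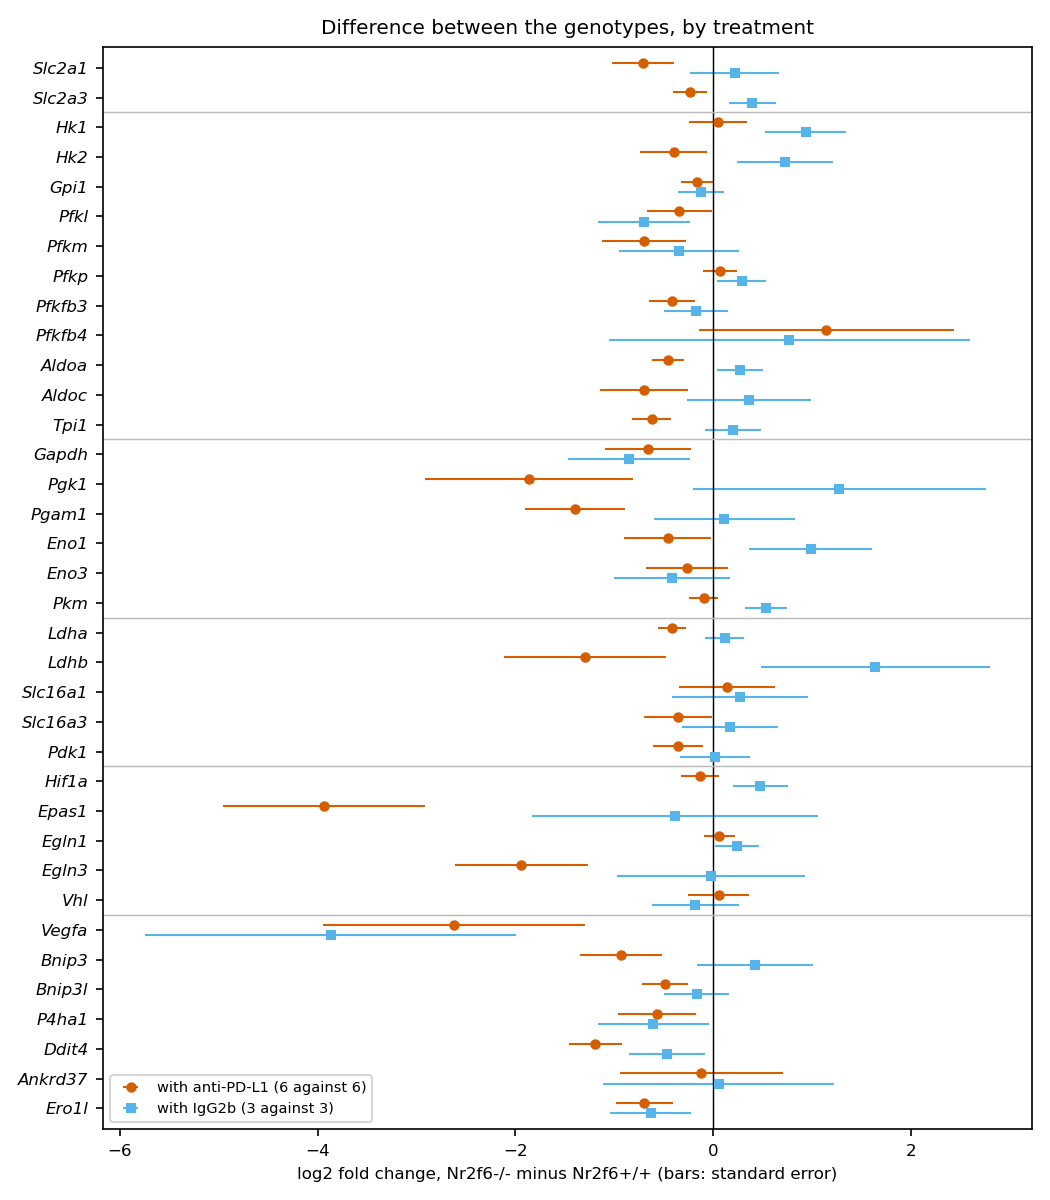
For each of the 36 genes, the horizontal axis gives the log2 fold change of Nr2f6-/- minus Nr2f6+/+ TILs with αPD-L1 (orange circles) and with IgG2b (blue squares); bars are standard errors of limma. With αPD-L1, 30 points lie below 0 and with IgG2b 14, and Epas1 (−3.93) and Vegfa (−3.87 with IgG2b) lie farthest to the left.

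PD-L1 blockade was then compared with IgG2b in each genotype. In Nr2f6+/+ mice no member passed the adjusted threshold, and 0.242% of all genes did, all of them lower. At an unadjusted p under 0.05, 6 members were higher with αPD-L1 and 0 lower, where 2.19% of all genes were higher and 5.05% lower. In direction 28 of the 36 were higher (42.6% of all genes), with a median log2 fold change of 0.29 against −0.10 over all genes. In the first library set alone the median was 0.16. Pkm had the smallest p, with 17880, 23538, 16264, 17178, 25247 and 20733 normalized counts with αPD-L1, all above the 3 IgG2b samples, and was higher by 0.64 on the log2 scale (standard error 0.18, adjusted p = 0.192). DESeq2 gave Pkm an adjusted p of 0.0309.

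Hk1 followed with 0.91 (standard error 0.36, adjusted p = 0.553), which was 0.08 without replicate 2 of Nr2f6+/+ IgG2b. The log2 fold change of Ddit4 was 0.84 (0.33, 0.553), of Aldoa 0.48 (0.20, 0.575) and of Bnip3 1.16 (0.51, 0.618). Bnip3 had 516 ± 136 normalized counts with IgG2b (SD, n = 3, lowest 364) and 1030, 3136, 337, 589, 2029 and 1539 with αPD-L1, where replicate 3 lay below the lowest IgG2b sample. Gpi1 and Ldhb were also separated between the treatments, Gpi1 with 4805 to 6303 against 6746 to 8593 and Ldhb with 51.0 ± 24.2 (SD, n = 3) against 154 ± 44.3 (SD, n = 6) normalized counts (1.32% of all genes were separated upward and 3.22% downward). Without replicates 2 and 5 of Nr2f6+/+ αPD-L1, 1 member had an unadjusted p under 0.05, and in the first library set alone also 1. The count was 2 without replicate 2 of Nr2f6+/+ IgG2b and 2 without either of those αPD-L1 replicates, and 9 without replicate 1 of Nr2f6+/+ IgG2b.

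In Nr2f6-/- mice no member passed, beside 0.325% of all genes. Epas1 and Hk2 were lower at an unadjusted p under 0.05 and 0 members higher, where 5.35% of all genes were lower and 4.34% higher. The median was −0.20 against −0.04 over all genes, with 24 of 36 members below 0 (52.9% of all genes). It was −0.31 in the first library set alone and −0.32 without replicate 6 of Nr2f6-/- αPD-L1. Epas1 had 225, 473 and 101 normalized counts with IgG2b, and differed by −3.59 on the log2 scale (standard error 1.25, adjusted p = 0.284). Hk2, the hexokinase induced on T cell activation, had 1727, 1032 and 893 with IgG2b and 695, 287, 582, 641, 814 and 653 with αPD-L1, so that the treatments did not overlap (ratio 0.501, adjusted p = 0.406). Hif1a (−0.48, 0.24, 0.525), Egln3 (−1.53, 0.82, 0.566) and Gpi1 (0.36, 0.20, 0.581) had the next smallest p. Ldha was also separated, with 21884 to 26155 with IgG2b and 16512 to 21780 with αPD-L1 (3.15% of all genes were separated downward).

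Side by side, 17 of the 36 members were higher with αPD-L1 in Nr2f6+/+ and lower in Nr2f6-/- mice, 11 were higher in both, 7 lower in both and 1, Vegfa, lower in Nr2f6+/+ only. Tested directly, the difference of the blockade effects passed for no member and no gene (0%) with limma, with 370 genes more positive and 226 more negative at an unadjusted p under 0.05 and 0 past the adjusted threshold with edgeR and 76 past the adjusted threshold with DESeq2. Of the members 29 of 36 were below 0, and of all genes 47%. At that threshold 6 members had a more negative effect in Nr2f6-/- mice and 0 a more positive one, beside 1.88% and 3.09% of all genes. The differences were −0.73 for Aldoa (standard error 0.28), −0.63 for Pkm (0.26), −0.82 for Tpi1 (0.35), −0.53 for Ldha (0.24) and −0.63 for Slc2a3 (0.29), each with an adjusted p of 0.974. The median over the 36 was −0.53, and 0.06 over all genes. Without replicates 2 and 5 of Nr2f6+/+ αPD-L1, 0 members had an unadjusted p under 0.05 in this test.

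**Figure D5:**
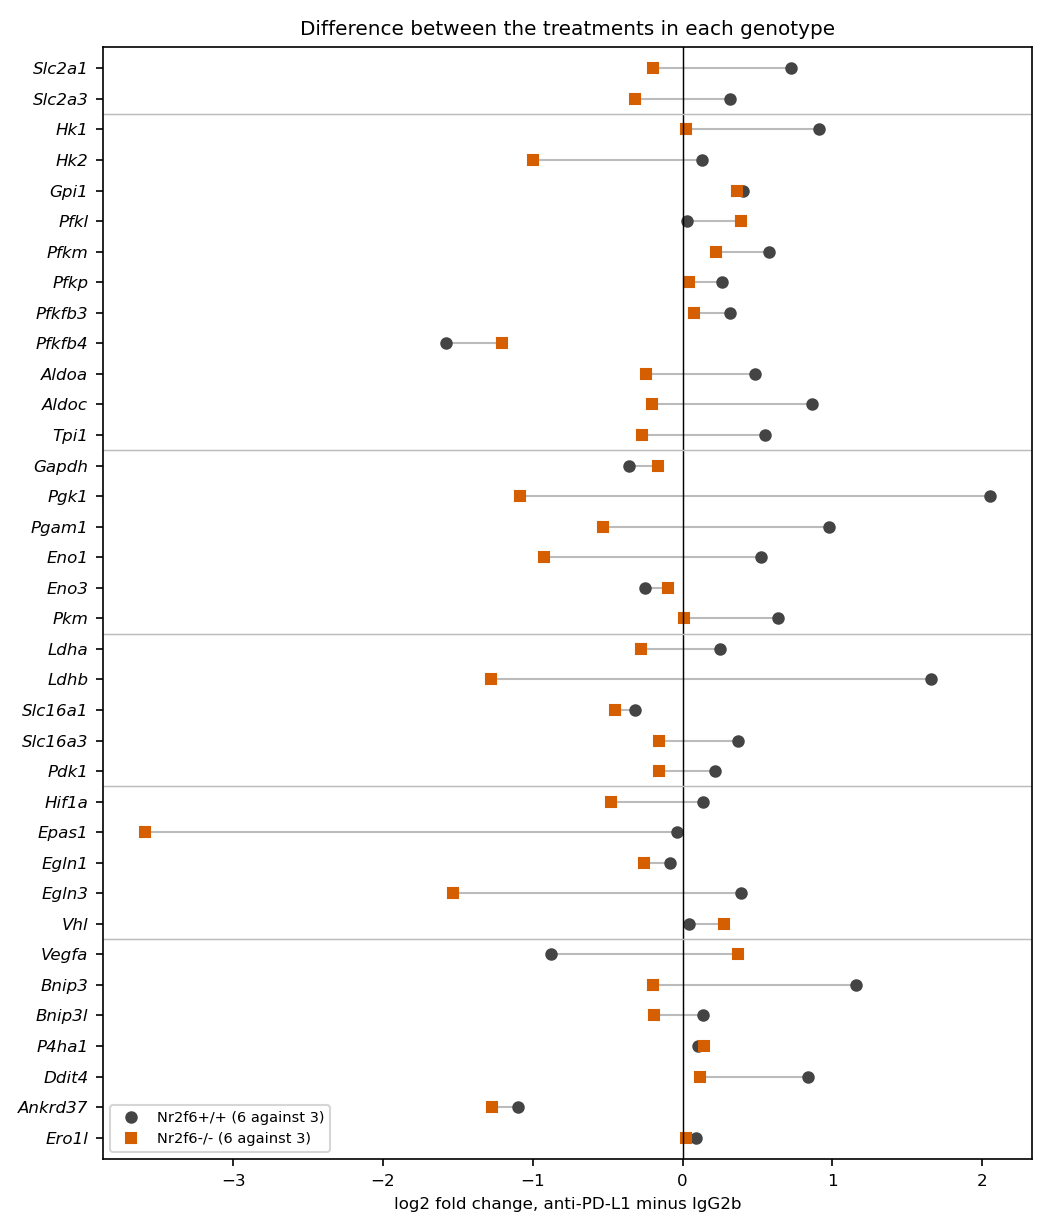
For each gene, the horizontal axis gives the log2 fold change of αPD-L1 minus IgG2b in Nr2f6+/+ (dark circles) and Nr2f6-/- mice (orange squares), joined by a line; standard errors are not drawn. Dark circles lie above 0 for 28 genes and orange squares below 0 for 24.

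Averaged over the genotypes, Gpi1 (0.38, standard error 0.14, adjusted p = 0.232) and Pkm (0.32, 0.13, 0.290) were higher with αPD-L1 at an unadjusted p under 0.05 and 0 members lower, beside 4.04% and 7.47% of all genes. No member passed the adjusted threshold (1.13% of all genes), and 22 of 36 were higher (43.6% of all genes), with a median of 0.11. With the library set as a covariate, or in the first set alone, 18 of 36 were higher, the median was −0.008, and 1 member was higher and 1 lower at an unadjusted p under 0.05. Without replicate 2 of Nr2f6+/+ IgG2b the median was −0.002, and over all samples left out in turn it reached 0.21 at most. Epas1 (−1.81, 0.89, 0.434), Ddit4 (0.48, 0.23, 0.435) and Hk1 (0.47, 0.25, 0.510) came next. Against the control of both factors, Nr2f6-/- αPD-L1 TILs had higher Pkm (0.54, standard error 0.18, adjusted p = 0.214) and Hk1 (0.96, 0.36, 0.298) and lower Epas1 (−3.97, 1.25, 0.180) and Vegfa (−3.50, 1.63, 0.513) than Nr2f6+/+ IgG2b TILs at an unadjusted p under 0.05 (3.12% of all genes higher and 5.92% lower). Gapdh was at −1.02 (0.53, 0.597). Pkm was the 1 member whose samples did not overlap, all 6 being at or above 14620 against at most 14561 (2.17% of all genes were separated upward). No member passed the adjusted threshold (0.617% of all genes), and 21 of 36 were lower (57.9% of all genes), with a median of −0.11 against −0.12 over all genes. This median turned to 0.02 without replicate 1 of Nr2f6+/+ IgG2b (18 of 36 higher) and was −0.23 without replicate 2 (11 higher), −0.05 and −0.02 without replicates 3 and 5 of Nr2f6-/- αPD-L1, −0.07 without its replicate 2 and −0.18 without its replicate 6. These comparisons share samples with those above and give no independent evidence.

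Macrophage markers moved with treatment in both genotypes. Of 14, 13 were lower with αPD-L1, with medians of −3.20 in Nr2f6+/+ and −3.07 in Nr2f6-/- mice, and 7 passed in the average over genotypes. Their sums were between 18106 and 31451 in IgG2b and between 7405 and 14859 in αPD-L1 samples. Of the 3 platelet markers tested, Pf4 and Ppbp passed in that average (adjusted p of limma 0.0130 and 0.0199), both lower with αPD-L1. T cell markers were higher in 11 of 12 genes in the same average, 4 of them at an unadjusted p under 0.05. Melanocyte markers had medians of 0.18 and 0.10 for treatment in Nr2f6+/+ and Nr2f6-/- mice. The part of these differences in the treatment comparisons was not tested.

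The remaining members are given by their ranges. Gapdh had 3143, 1683 and 750 normalized counts in Nr2f6+/+ IgG2b and between 205 and 1782 in Nr2f6-/- αPD-L1, and Eno3, the muscle enolase, had 346 to 2685 in Nr2f6+/+ αPD-L1. Pfkl was between 248 and 1555 over all samples, Pfkm between 124 and 594, Pfkp between 2323 and 4853, and Pfkfb3 between 978 and 2908. Aldoc was between 142 and 1209, Eno1 between 95.4 and 677, Slc16a1, the lactate carrier MCT1, between 70.0 and 607, and Slc16a3, MCT4, between 262 and 1106. Pdk1, a kinase that inhibits pyruvate dehydrogenase, was between 607 and 1827, P4ha1 between 178 and 1074, and Ankrd37, an ankyrin repeat protein induced by HIF, between 4.18 and 630. None of the genes of this paragraph was among those with an unadjusted p under 0.05 in a comparison of groups.

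Pgk1, phosphoglycerate kinase, cannot be read alone. It had between 2.43 and 461 normalized counts (mean 137), while its near-identical retrocopy Pgk1-rs7 had a mean of 929, or 87.2% of both together. Alone, its difference for genotype with αPD-L1 was −1.86 on the log2 scale (standard error 1.05, adjusted p = 0.597). With the reads of both added it was −0.71 (standard error 0.27, adjusted p = 0.357), with sums between 925 and 2237 in Nr2f6+/+ and between 560 and 1295 in Nr2f6-/- mice, and 12 members were then at an unadjusted p under 0.05. With IgG2b the value went from 1.28 to −0.45. For Eno1, 13.0% of the reads on the gene and its copy in the table lay on that copy. For Gapdh, 77 near-identical copies were found, of which 2 are rows of the table with 0.236% of the reads on the gene and these copies. Of 4 copies found for Pgk1 and 3 for Eno1, only 1 each is a row of the table, so reads on the others are in none of these values. Near-identical copies without a row in the table were also found for Ldha (4), Bnip3 (3), Bnip3l, Pgam1, Pkm, Ldhb and Tpi1 (1 each), and for Gpi1 the copy in the table held 0.108% of the reads. Levels of all these genes are uncertain in so far as reads could be placed on a copy.

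Other genes of the pathways were listed separately. Of 18 further genes of glycolysis and pyruvate entry, 2 were higher (the pyruvate dehydrogenase kinases Pdk2 and Pdk3) and 1 lower (the galactokinase Galk1) at an unadjusted p under 0.05 (4.66% of all genes were higher and 5.07% lower) in Nr2f6-/- αPD-L1 against Nr2f6+/+ αPD-L1, and the median was −0.02. Of 9 pentose phosphate genes 0 were, with a median of −0.05, and of 15 regulators of glycolysis such as Myc and Mtor 1 was lower, Txnip, the glucose-responsive brake on glucose uptake, at −0.36 (standard error 0.17, adjusted p = 0.486). Of 27 further genes of the HIF pathway 5 were lower and 0 higher (5.07% and 4.66% of all genes), with a median of −0.19: Higd1a (−0.64), Jmjd6 (−0.65), Egln2 (−0.71), Rora (−0.53) and Stc2 (−3.09), with adjusted p-values of limma between 0.315 and 0.496. With IgG2b these lists had medians of 0.23, −0.05, 0.16 and 0.01 in the same order. Across all comparisons 1 gene of these 4 lists passed (1.13% of all genes in its comparison), Tfrc, the transferrin receptor and a HIF target, which fell with αPD-L1 over both genotypes by 0.72 on the log2 scale (standard error 0.18, adjusted p = 0.0428), from between 4617 and 8601 normalized counts with IgG2b to between 2081 and 6387.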

How the data were processed

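QuantSeq 3′ libraries from 20 ng RNA of CD3+ TILs were sequenced on the Ion Torrent platform. Per the labels and the study's methods, the authors used Cutadapt and Trimmomatic for trimming, discarded reads under 22 nucleotides, and aligned to mm10 first by STAR and, for what was left, by Bowtie2. Multiply mapped reads contributed their primary alignment, and HTSeq-count gave reads per gene. The annotation, strand setting and versions are not given in the sources used here, so overlapping and antisense genes are uncertain. The authors deposited 1 signal value per gene and sample, a whole number of reads scaled by 1 factor for each library, with replicates not pooled. DESeq2 is among the tools the submitters named, and that the factors are its size factors was taken from this. Dividing by the smallest step of each sample gave whole reads for 100% of values (tolerance 0.001 reads). No 2 of the 153 pairs of columns were identical.

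Log2(normalized count + 1) of the 11992 genes with a mean of at least 10 was tested with limma 3.58.1 in R 4.3.3 (eBayes with trend, 1 model of 4 group means over 18 samples, two-sided, Benjamini-Hochberg over all genes, threshold 0.05). For genes with low counts, fold changes on this scale depend on the pseudocount and can be larger than those of edgeR and DESeq2, as for Epas1. All p-values are of limma unless another tool is named. The library set was compared over the 12 αPD-L1 samples with genotype in the model. Alternatives were other pseudocounts (0.5, 10) and filters (none, or a minimum mean of 50), scaling to the same total, quantile normalization, only the groups compared, the library set as covariate or each set alone, the replicate number as block, sample weights, edgeR 4.0.16 and DESeq2 1.42.0 on recovered reads, and each sample left out in turn. The addition of near-identical copies and the joint removal of 2 samples were chosen after seeing the data. The fit was tried on simulated counts in which all genes had the same dispersion and there were no library sets. That trial does not show how the fit behaves for genes that spread more, such as Epas1. Copies were transcripts of GENCODE M21 with at least 95% identity over 200 bases.

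The members and lists were chosen with earlier results of these data known. Per comparison, the 5 members with the smallest unadjusted p are given with their statistics, in addition to any past the threshold, and all 36 with levels.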

Additional observations from a re-analysis of the deposited data

Results flagged for a closer look

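In groups of 6 samples, 4 of 72 gene and group combinations had 1 sample far from its fellows (a gap above 0.625 of the range), and chance gives about 1 in 20. Eno3 was at 2685 normalized counts in replicate 4 of Nr2f6+/+ αPD-L1, with the other 5 between 346 and 1070. Epas1 was at 415 in replicate 3 of Nr2f6-/- αPD-L1, with the others between 0 and 75.5. Vegfa was at 75.2 in replicate 6 of Nr2f6-/- αPD-L1, and Ero1l at 1588 in replicate 1 of Nr2f6+/+ αPD-L1. Groups of 3 were not examined.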

How the results depend on the processing

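For the 5 members with the smallest p in each comparison, 1177 values were computed under the alternatives. Of these, 1162 kept their direction and side of the threshold, 15 passed it newly and 0 reversed. None had passed in the main fit and all were picked for a small p, so this count does not measure how stable the sizes were. Hk1 for genotype with IgG2b counts as kept although it went from 0.94 to 0.10. Pgk1 is outside these members. With its copy added its value changed sign for genotype with IgG2b (1.28 to −0.45) and for blockade in Nr2f6-/- mice (−1.09 to 0.03). The number of members past the adjusted threshold for genotype with αPD-L1 was 0, and 1 with a pseudocount of 10, quantile normalization, the replicate block, sample weights or edgeR and 2 with DESeq2, with a range of 0 to 1 when 1 sample was left out. Of all 11992 genes, 11 were higher and 10 lower past it in the main fit, and 84 and 100 of 11736 with DESeq2. The pseudocount of 10 gave 17 and 12, quantile normalization 16 and 12, the replicate block 18 and 13, sample weights 13 and 10 and edgeR 13 and 9. With DESeq2 the number of members was also 1 for blockade in Nr2f6+/+ mice (36 of all genes higher and 58 lower), 1 for genotype over both treatments (82 and 99) and 2 for the library set (95 and 58). It stayed 0 in the remaining comparisons. Members with an unadjusted p under 0.05 for genotype with αPD-L1 numbered 11, and 4 in the second library set, 6 without replicates 2 and 5 of Nr2f6+/+ αPD-L1, and 8 to 15 with 1 sample left out. Of all genes, 559 were higher and 608 lower at this threshold in the main fit, and 384 and 371 in the second set. For genotype with IgG2b the 3 members became 1 without a filter, with edgeR and with DESeq2, and 1 to 3 with 1 sample left out. Of all genes, 243 higher and 398 lower became 456 and 818 of 20903 without a filter. They became 257 and 345 with edgeR and 330 and 446 with DESeq2. For blockade in Nr2f6+/+ mice the 6 became 3 with only the groups compared, 1 in the first set, 1 without replicates 2 and 5, and 2 to 9 with 1 sample left out. Of all genes, 263 higher and 605 lower became 286 and 580 with only the groups compared and 334 and 747 in the first set. For blockade in Nr2f6-/- mice the 2 became 4 with quantile normalization, the set as covariate, the first set or the replicate block, 1 with only the groups compared or edgeR, and 1 to 4 with 1 sample left out. Of all genes, 521 higher and 642 lower became 606 and 579, 490 and 632, 468 and 701, 476 and 628, 530 and 654, and 591 and 618 in the same order. For the combination the 4 became 1 with edgeR or DESeq2, where 374 of all genes higher and 710 lower became 418 and 542 or 544 and 533. For blockade over both genotypes the 2 became 1 with quantile normalization, 4 with edgeR or DESeq2, and 1 without replicates 2 and 5. Of all genes, 485 higher and 896 lower became 619 and 772 with quantile normalization, 702 and 669 with edgeR and 848 and 645 with DESeq2. For genotype over both treatments the 4 became 7 in the first set, 2 with edgeR or DESeq2, and 4 to 7 with 1 sample left out. Of all genes, 442 higher and 575 lower became 565 and 708 in the first set, 469 and 554 with edgeR and 524 and 653 with DESeq2. For the difference of blockade effects the 6 became 0 without replicates 2 and 5, and 3 to 9 with 1 sample left out, and for the library set the 4 became 3 to 7. The cause of these shifts was not tested, beyond the fewer samples of some fits.

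Replicate numbers did not pair the samples: deviations of the 21 same-numbered pairs correlated between −0.03 and 0.04. Under the replicate block Ddit4 passed at an adjusted p of 0.0320. Low counts limit Vegfa, Pfkfb4 and Epas1, whose estimates move with the pseudocount.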
